A study of Rattus norvegicus with 12 samples.

Results

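Liver circular RNAs of rats whose diabetes had relapsed after sleeve gastrectomy were compared with those of sham-operated diabetic rats. The comparison holds 7 of the 12 libraries of the series: both libraries labelled as relapse and all 5 sham libraries, chosen by their labels. The other 5 libraries came from diabetic rats after sleeve gastrectomy, sampled at 3 months. Their values are given beside the others with no test of their own. They do enter the filter, the scaling and the estimate of spread behind the p-values of relapse against sham. Sleeve gastrectomy removes most of the stomach, and a sham operation leaves it in place. All rats were wild-type Wistar rats. They had been fed a diet with 60% of calories as fat for 4 weeks and had then received 35 mg/kg streptozotocin, a toxin of pancreatic beta cells, after 16 h of fasting. Rats entered the study when their fasting glucose exceeded 16.7 mmol/L 3 days after that injection. The relapse group differs from the sham group both in the operation and in the return of diabetes, and these cannot be told apart here. The sources used here do not give the glucose of the relapse rats, the sampling time of the relapse and sham groups, or the age and sex of the rats. Whether each library came from its own rat is not stated either, so the p-values reflect the spread among these libraries, which may be technical.

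A circular RNA (circRNA) forms when a splice donor is joined to an acceptor upstream of it, and it is recognised by reads that cross this back-splice junction. Most circRNAs hold exons of a protein-coding host gene, and circular intronic RNAs (ciRNAs) come from excised introns. Circles lack free ends and resist exonucleases, so they outlast the linear transcripts, and their level need not follow that of the messenger RNA. The liver turns surplus carbohydrate into fatty acids, burns fat in fasting, and makes glucose for the blood. In diabetes with little insulin, glucose production and fat burning run high and fat synthesis runs low. The deposited data count back-splice reads only, and neither messenger RNA nor protein was measured.

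Depth was 18473 and 37229 back-splice reads in relapse libraries 1 and 2 and 18176 to 30213 in the sham libraries. Reads of one junction and then of one host gene were summed, which left 1337 hosts and 1519 junctions with enough reads to test. Host levels are given as CPM, counts per 1000000 reads of the tested hosts after scaling by TMM (trimmed mean of M-values). Exonic circles took 80.5% to 84.8% of the reads of the 12 libraries. The relapse pair and each of the 10 sham pairs differed by more than sampling noise. The liver label was checked on marker genes: all 10 hepatocyte markers had back-splice reads, and all 26 markers of pancreas, stomach and gut had none. The latter is weak evidence, since many markers of cells that reside in liver had none either. These were 17 of 24 for stellate cells and matrix, 16 of 24 for Kupffer cells and macrophages and 12 of 16 for cholangiocytes.

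Of 1337 tested hosts, 2 passed a false discovery rate (FDR) of 0.05 in edgeR's quasi-likelihood test, 0.15% of those tested (0.0748% in each direction). Acly, which encodes ATP-citrate lyase, the enzyme that makes cytosolic acetyl-CoA for the synthesis of fatty acids and cholesterol, rose in relapse. Nfatc2, a calcineurin-dependent transcription factor best known from T cells, fell. Both relapse libraries lay above all 5 sham libraries in 67 hosts (5.01% of those tested) and below all 5 in 74 hosts (5.53%), 141 in all (10.5%). If the libraries were exchangeable, 2 of the 21 splits into 2 and 5 would show no overlap, a share of 0.0952. The 10.5% lies near that share, so a lack of overlap alone is weak evidence for a host. An unadjusted p under 0.05 was reached by 79 hosts (5.91%), 24 higher (1.8%) and 55 lower (4.11%), while 5% of them would make 66.8. Hosts other than Acly and Nfatc2 are described below by their levels.

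The split of higher against lower hosts depended on the scaling. The median log2 fold change of all tested hosts was -0.08 after TMM and 0.26 on the library totals behind the authors' SRPBM values, an alternative chosen after seeing the data. On those totals, both relapse libraries lay above all sham libraries in 110 of the 1337 hosts and below them in 42. After TMM these counts were 67 (5.01%) and 74 (5.53%). In the relapse group 26 of the 1337 tested hosts had 0 reads, and 5 of these were read in all 5 sham libraries. In the sham group 3 had 0 reads, and 1 of these was read in both relapse libraries. A 0 over 2 libraries is reached more easily than a 0 over 5, so these counts do not compare the groups. In relapse, 266 other hosts were read in just 1 of the 2 libraries, 219 of them in the deeper library 2.

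**Figure D1:**
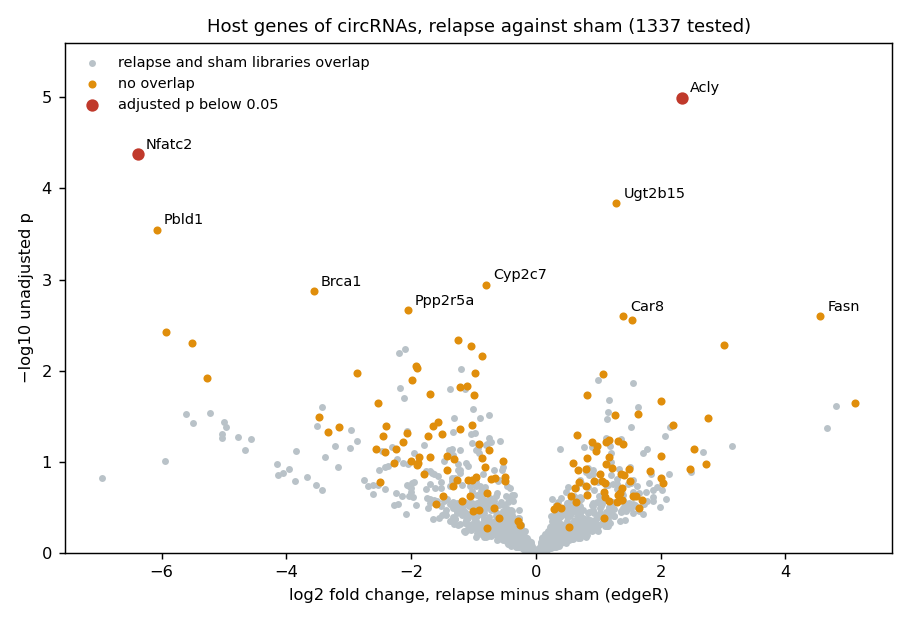
Log2 fold change of each tested host gene (horizontal axis, relapse minus sham) against −log10 of its unadjusted edgeR p (vertical axis). Grey points are hosts whose relapse and sham libraries overlap, orange points those that do not, and red points Acly and Nfatc2, the 2 hosts past the adjusted threshold. With these 2 included, 67 hosts without overlap lie on the higher side and 74 on the lower.

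Fat synthesis gave the host that rose. Acly measured 2672 and 1506 CPM in relapse libraries 1 and 2 and 501, 214, 653, 319.8 and 298 CPM in sham libraries 1 to 5. Both relapse libraries lay above every sham library, and also above the sleeve gastrectomy libraries, at 341 to 1042 CPM (median 755). The means were 2089 ± 825 (SD, n = 2) in relapse and 397 ± 177 (SD, n = 5) in sham, from 84 and 34 reads. The log2 fold change was 2.35 (SE 0.49) with an adjusted p of 0.0135 in edgeR. Adjusted p ran from 0.00213 to 0.0352 over the 10 other settings that test Acly, and was 0.643 without relapse library 1, where the log2 fold change was 1.97.

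One small circle carried most of the Acly reads. It is circRNA430, made of 2 exons on the minus strand of chromosome 10, 88397109 to 88397582 in Rnor_6.0, and it held 76.3% of the Acly reads of the 7 libraries. It had 31 and 28 reads in the relapse libraries and 11, 3, 9, 3 and 5 in the sham libraries. None of the other Acly circles was read in both relapse libraries. The 6-exon circRNA3430 had 11 reads in library 2 and the intronic ciRNA16 had 7 in library 1, and the sham libraries had none of either. The bars of reads per circle show circRNA430 in all 7 libraries and the rest scattered.

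Fasn encodes fatty acid synthase, which builds palmitate from the product of the Acly pathway. It measured 1043 and 315 CPM in relapse and 91.0, 0, 0, 0 and 0 CPM in sham. Both relapse libraries lay above the sham libraries, 4 of which had no Fasn read. These levels rest on 25 relapse and 2 sham reads, a depth-scaled ratio of 23.8 with a 95% exact counting interval of 5.94 to 208. Such intervals, and the bounds given below for groups without reads, cover counting error only. They leave out the spread between libraries, and also PCR copies, which cannot be recognised. Entries that name their host by an Ensembl identifier held 88.9% of the Fasn reads. In such entries 1.68% of the values above 0 are 1 read, against 38.1% elsewhere, so a 0 there may stand for a few reads, and ratios and bounds that rest on it are less firm. The adjusted p was 0.374 in edgeR and 0.0573 in limma-voom, with a range of 0.0573 to 0.964 over the settings. Of the 27 reads, 22 relapse and 2 sham reads came from ciRNA188, an intronic circle on chromosome 10, 109992564 to 109992911. After sleeve gastrectomy Fasn ran over 0 to 407 CPM (median 89.6).

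No other host of lipid synthesis and storage passed the threshold. Of 11 tested members of that list, 1 passed the threshold higher (Acly) and 0 lower. At an unadjusted p under 0.05, 2 were higher (Acly and Fasn) and none lower, where 1.8% of all tested hosts were higher and 4.11% lower. The list's median log2 fold change was -0.39 beside -0.08 for all hosts after TMM, and 0.07 beside 0.26 on the library totals behind SRPBM. Acaca and Acacb, which encode acetyl-CoA carboxylases, had log2 fold changes of 0.83 and 0.50 (unadjusted edgeR p 0.365 and 0.604). Fads2, a fatty acid desaturase, stood at -0.81 (unadjusted p 0.0662); these 3 were chosen after their values were seen.

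**Figure D2:**
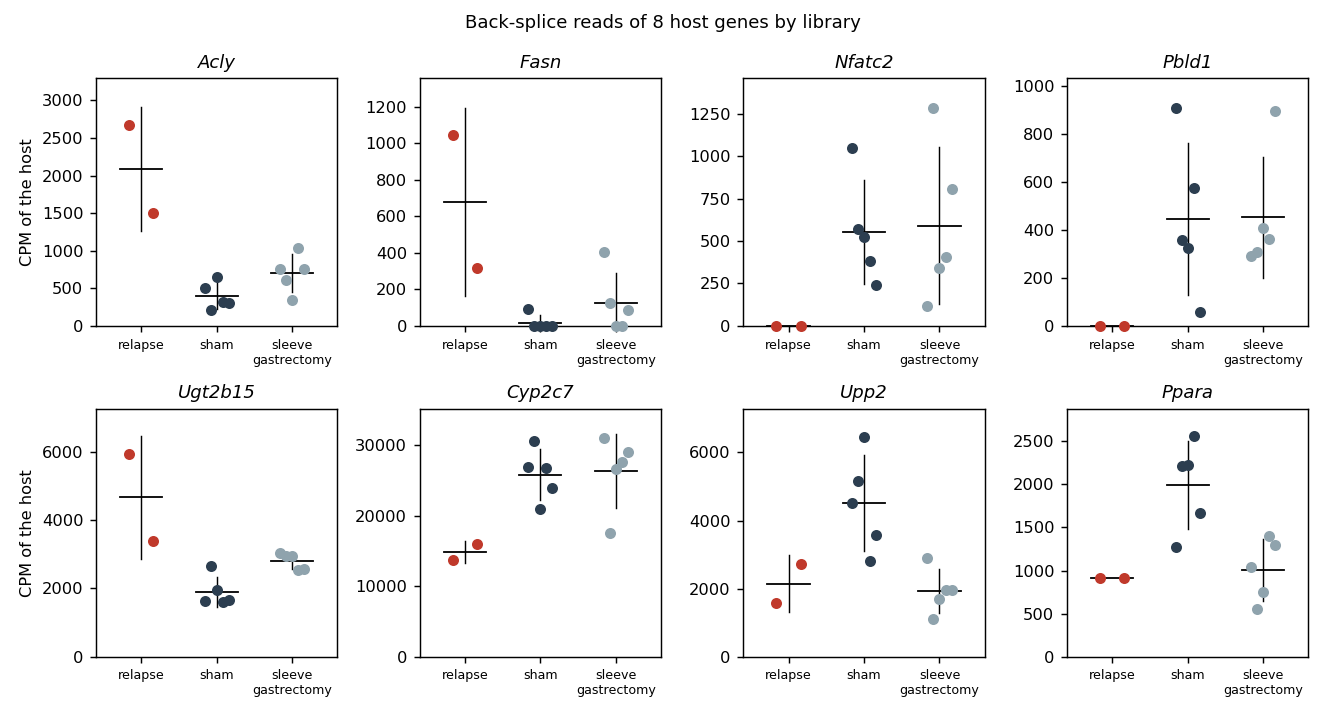
CPM of 8 host genes in each library; each point is a library, horizontal lines are group means and vertical lines are 1 SD. For Acly, Fasn and Ugt2b15 both relapse points lie above all 5 sham points, and for Nfatc2, Pbld1, Cyp2c7, Upp2 and Ppara both lie below them.

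Ugt2b15, a UDP-glucuronosyltransferase that conjugates steroids and drugs, came closest to the threshold among the higher hosts. Its levels were 5931 and 3397 CPM in relapse and 1638, 2645, 1958, 1599 and 1669 CPM in sham. All sham libraries lay under both relapse libraries, and so did the sleeve gastrectomy libraries, at 2538 to 3022 CPM (median 2935). Its log2 fold change was 1.29 (SE 0.32) with an adjusted p of 0.0651 in edgeR. It passed in DESeq2 (0.0177), with RLE size factors (0.0418), without relapse library 2 (0.0260) and without sham library 2 (0.0349), and adjusted p over the settings reached 0.923. Ugt2b genes are near-identical neighbours, so the authors' counting could have split their reads between copies, and the assignment to Ugt2b15 is uncertain. Identifier entries held 42.7% of its reads. Such an entry, circRNA2935, had 36 and 27 reads in relapse and 0, 19, 0, 0 and 18 in sham. The limit on a 0 given for Fasn therefore applies to the host. The circle with the most reads, circRNA745, had a log2 fold change of 0.94 (adjusted p 0.806 in edgeR).

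Car8 and LOC297568 were the next higher hosts by p, beside Fasn. Car8, a carbonic anhydrase-related protein without enzyme activity, measured 1890.2 and 2066 CPM in relapse and 1092, 357, 587, 384 and 1252 CPM in sham. Its relapse libraries also lay above the sleeve gastrectomy libraries, at 581 to 1706 CPM (median 1586). Most of its reads came from 1 intronic circle, ciRNA265, written under an identifier, with 68 relapse and 28 sham reads. The largest exonic circle of Car8, circRNA1248, had 9 relapse and 28 sham reads, and with symbol entries alone the log2 fold change of the host was 0.00, against 1.40 with all entries. LOC297568 is annotated as alpha-1-inhibitor III, a plasma protease inhibitor of the macroglobulin family, and measured 2933 and 2977 CPM in relapse and 728, 500.5, 196, 895 and 2683 CPM in sham. Sham library 5 lay near the relapse level and the other 4 far below it. The adjusted p in edgeR was 0.374 with that library and 0.00305 without it, and 0.00612 in limma-voom, with a range of 0.00612 to 0.670 over the settings that left out no library. Its paralogs lie close together, so the assignment of its 48 circles to 1 gene is uncertain. Mug2, a murinoglobulin of the same family, measured 2738 and 1226 CPM in relapse and 1229, 1001, 326, 448 and 1371 in sham, and these overlap.

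Slc33a1, the acetyl-CoA transporter of the endoplasmic reticulum, measured 587 and 665 CPM in relapse and 45.5, 0, 131, 0 and 179 CPM in sham, and 2 sham libraries had no read of it. Cabin1, a calcineurin-binding protein, measured 1955 and 1961 CPM against 1456, 929, 522, 703 and 954 CPM in sham. Its relapse libraries nearly coincided, and the nearest sham library was library 1. AABR07065078 had 9 reads in relapse and none in sham, at least 5.72-fold higher when sham is set to 3 reads over the group. Ttc3 and Usp7, a ubiquitin ligase and a deubiquitinase, Dpp8, a dipeptidyl peptidase, and Meak7 completed the 12 non-overlapping hosts with the smallest p, with log2 fold changes of 0.82, 2.01, 1.27 and 1.63. Usp7 stood at 3.05 without sham library 4, and Meak7 at 0.99 without relapse library 2. Identifier entries held 91.9% of the Usp7 reads, so the limit on a 0 given for Fasn applies to the sham libraries without a read of it. The adjusted p of the hosts in these sentences lay between 0.482 and 0.806 in edgeR, and none of them passed under any setting.

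Nfatc2 was the host that fell. It had no read in either relapse library, and 1047, 572, 522, 384 and 238 CPM in sham libraries 1 to 5, from 49 reads. Every sham library read it, as did every sleeve gastrectomy library, at 116 to 1287 CPM (median 408). Its level in relapse was at least 8.57-fold lower than in sham when relapse is set to 3 reads over the group, and at least 2.99-fold or 5.57-fold from relapse library 1 or 2 alone. These bounds cover counting error only, not the spread between libraries. The adjusted p was 0.0282 in edgeR. It was 0.0639 in DESeq2 and 0.201 in limma-voom, and 3 of 11 other settings kept it under the threshold, over a range of 0.0191 to 0.923. Without relapse library 1, relapse library 2 or sham library 1 it was 0.381, 0.191 and 0.221.

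Its reads came from 4 circles, none read in relapse. The largest was circRNA7962, 2 exons on chromosome 3, 165333441 to 165338806, with 28 sham reads. Identifier entries held 69.4% of its reads, so the limit on a 0 given for Fasn applies to its bound. The summed level of the 28 lymphocyte and granulocyte markers, Nfatc2 included, was 217 and 188 per 1000000 back-splice reads (RPM) in relapse and 521 to 953 in sham. Without Nfatc2 it was 217 and 188 in relapse and 99.3 to 652 in sham, and these overlap. Of that list 22 markers were at 0 in all 7 libraries, among them Cd3e, Cd4, Cd8a and Ms4a1. The part of immune cells in the Nfatc2 result was not tested. In bulk tissue, fewer cells of a type and less RNA per cell cannot be told apart.

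Other members of the inflammation and stress kinase list had lower levels without passing the threshold. Of 13 tested members 1 passed it (Nfatc2, lower), and at an unadjusted p under 0.05 there were 3 lower and 1 higher (4.11% and 1.8% of all hosts), with a median log2 fold change of -0.17 after TMM and 0.19 on the library totals behind SRPBM. Map3k5, the stress-activated kinase ASK1, measured 1238 and 946 CPM in relapse and 1456, 2788, 4699, 2110.4 and 1848 in sham. Il1r1, the receptor of interleukin-1, measured 130.4 and 280.2 CPM in relapse and 455, 858, 653, 1407 and 835 in sham. In both, each relapse library lay under every sham library, with adjusted p of 0.482 and 0.604 in edgeR. The sleeve gastrectomy libraries ran over 887 to 1792 CPM (median 1586) for Map3k5 and 245 to 538 CPM (median 407) for Il1r1. Identifier entries held 84.6% of the Il1r1 reads, and none of its circles was read in both relapse libraries. Its circle ciRNA898, an identifier entry, had 0 relapse and 27 sham reads, so the limit on a 0 given for Fasn applies. The higher member was Irak3, which restrains signalling from Toll-like receptors, with a log2 fold change of 1.16 (unadjusted p 0.0285), chosen after its value was seen.

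**Figure D3:**
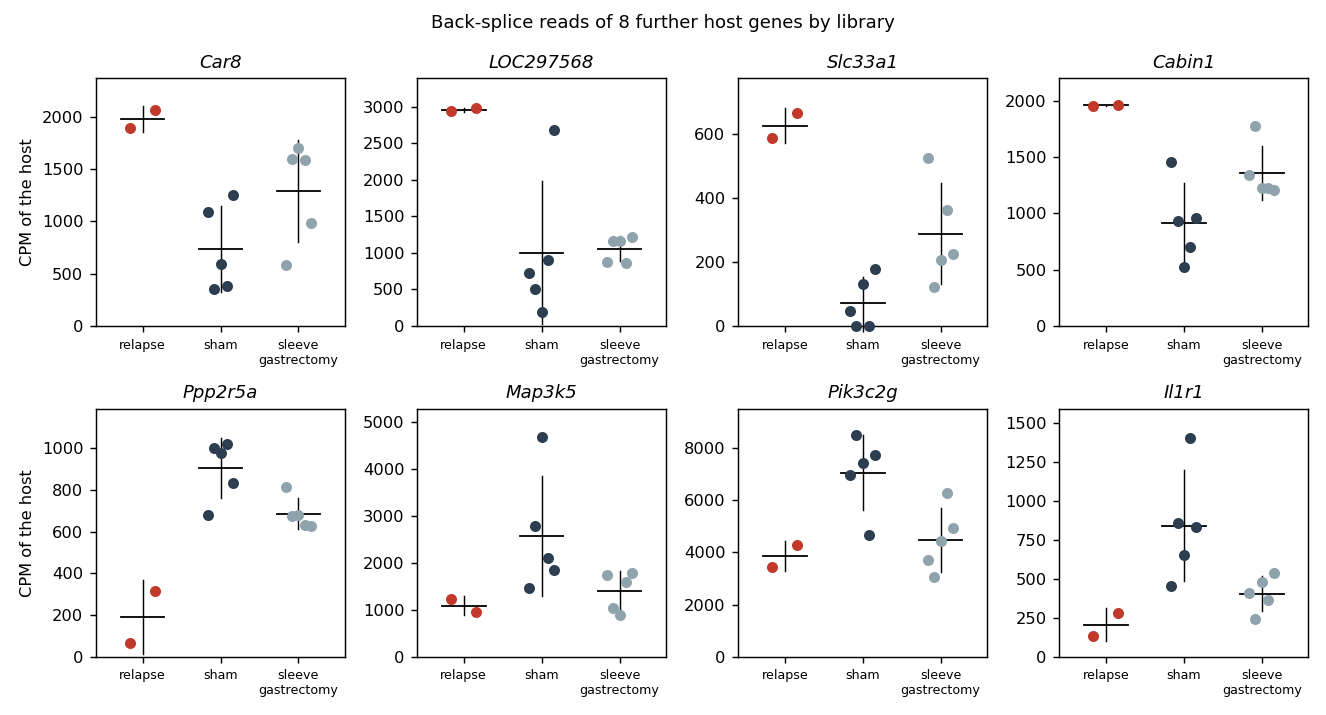
CPM of 8 further host genes in each library, drawn as for the first 8. Both relapse points lie above all sham points for Car8, LOC297568, Slc33a1 and Cabin1 and below them for Ppp2r5a, Map3k5, Pik3c2g and Il1r1; none of the 8 passed the adjusted threshold.

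Several hosts of other functions had few or no reads in relapse. Pbld1, a protein with a phenazine biosynthesis-like domain, had no relapse read and 910.3, 357, 326, 576 and 59.6 CPM in sham, from 40 reads. Relapse was at least 6.99-fold lower, with an adjusted p of 0.0947 in edgeR and 0.0342 without sham library 5, the lowest sham library (range over the other settings 0.0979 to 0.996). Zcchc7, an RNA-binding zinc-knuckle protein, and ENSRNOG00000036866, annotated as alkaline ceramidase 3, were also at 0 in relapse with 34 and 25 reads over the sham group, at least 5.94-fold and 4.37-fold lower. Identifier entries held 91.2% of the Zcchc7 reads and all those of ENSRNOG00000036866, so the same limit on a 0 applies, as it does to Pbld1 (45.0% of reads in such entries). Zcchc7 had 14 reads after sleeve gastrectomy and reached the minimum total of 15 reads for testing only with its sham reads.

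Brca1, a DNA repair protein, had 0 and 2 reads in relapse against 51 in sham, a sham-to-relapse ratio of 13.4 (95% exact counting interval 3.52 to 113). Identifier entries held 60.4% of the Brca1 reads. Ppp2r5a, a regulatory subunit of protein phosphatase 2A, measured 65.2 and 315 CPM in relapse and 683, 1001, 979, 1023 and 835 in sham. The sham libraries were tight and the relapse libraries far below them. Mipol1 measured 196 and 175 CPM in relapse and 1047, 1072, 587, 319.8 and 537 in sham. The adjusted p in edgeR was 0.301, 0.374 and 0.604 for these 3, and none passed under any setting. Of the 6 tested hosts of the cell cycle and regeneration list, which holds Brca1, none passed the threshold, and Tead1, a transcription factor of the Hippo pathway, measured 2803 and 3432 CPM in relapse against 2458, 1716, 1501, 1791 and 2385 in sham, with no overlap.

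Drug and steroid metabolism held the most abundant of the lower hosts. Cyp2c7, a cytochrome P450 that hydroxylates retinoic acid and steroids, measured 13753 and 16006 CPM in relapse and 26898, 30671, 20949, 26796 and 23968 CPM in sham. The means were 14879 ± 1593 (SD, n = 2) and 25856 ± 3633 (SD, n = 5), so that relapse stood at 57.5% of sham, and the sleeve gastrectomy libraries ran over 17527 to 31091 CPM (median 27647). The log2 fold change was -0.80 (SE 0.23). The adjusted p was 0.301 in edgeR, 0.0309 in DESeq2 and 0.0266 in limma-voom, with a highest value of 0.996 over the settings. On the library totals behind SRPBM the log2 fold change was -0.44. Cyp2c genes are close paralogs, and reads may have been split between them.

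Cyp2c7 reads came from several circles. The 4-exon circRNA2052 had 98 and 190 reads in relapse and 972 over the sham group. The 5-exon circRNA2050 had 86 and 136 in relapse and 746 in sham. The intronic ciRNA608 had 0 reads in relapse library 1, 76 in library 2 and 204 over the sham group, so the 2 relapse libraries did not agree on it. The summed level of the 10 hepatocyte markers, Cyp2c7 among them, was 22736 and 23987 RPM in relapse and 30814 to 42639 in sham. Without Cyp2c7 it was 11314 and 11711 and 11934 to 19036, still with no overlap but by a small gap. Cps1, whose groups overlapped, held 632 of the 1647 sham reads of that sum. Among its tested markers only C3 had a log2 fold change above 0, at 0.26. The part of cell composition in the Cyp2c7 result was not tested.

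Upp2, uridine phosphorylase 2 of pyrimidine breakdown, measured 1564 and 2732 CPM in relapse and 4506, 5148, 6461, 2814 and 3577 CPM in sham. Both relapse libraries lay below all sham libraries, by a small gap for library 2. The sleeve gastrectomy libraries reached as low, at 1103 to 2906 CPM (median 1949). The log2 fold change was -1.04 (SE 0.36) with an adjusted p of 0.482 in edgeR. Of 23 tested drug and steroid metabolism hosts none passed the threshold. At an unadjusted p under 0.05, 4 were lower (Cyp2c7, Upp2, Cyp2c6v1 and Cyp3a9) and 1 higher (Ugt2b15), against 4.11% and 1.8% of all hosts. Cyp2c6v1 and Cyp3a9, named after their values were seen, are cytochromes P450 with log2 fold changes of -0.97 and -1.33. The list's median log2 fold change was -0.53, beside -0.08 for all hosts, and -0.17 beside 0.26 on the library totals behind SRPBM.

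Fat oxidation hosts included the nuclear receptor that switches the pathway on. Ppara, which induces the enzymes of fatty acid oxidation in fasting, measured 913 and 911 CPM in relapse and 1274, 2216, 2219, 2558 and 1669 CPM in sham. The relapse libraries were alike and under every sham library, and the sleeve gastrectomy libraries ran over 552 to 1405 CPM (median 1046). Hadhb, the beta subunit of the mitochondrial trifunctional protein, measured 1238 and 1086 CPM in relapse and 2594, 2859.8, 1240.0, 2558 and 2325 CPM in sham. Sham library 3 lay almost at the level of relapse library 1. Adjusted p was 0.653 for Ppara and 0.689 for Hadhb in edgeR. Of 19 tested members none passed the threshold, 2 were lower at an unadjusted p under 0.05 (4.11% of all hosts) and none higher (1.8%). The median of the list was -0.31 after TMM and 0.08 on the library totals behind SRPBM. Cpt1a, the carnitine palmitoyltransferase that admits fatty acids to mitochondria, had a log2 fold change of 1.13 (unadjusted p 0.356), chosen after its value was seen.

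**Figure D4:**
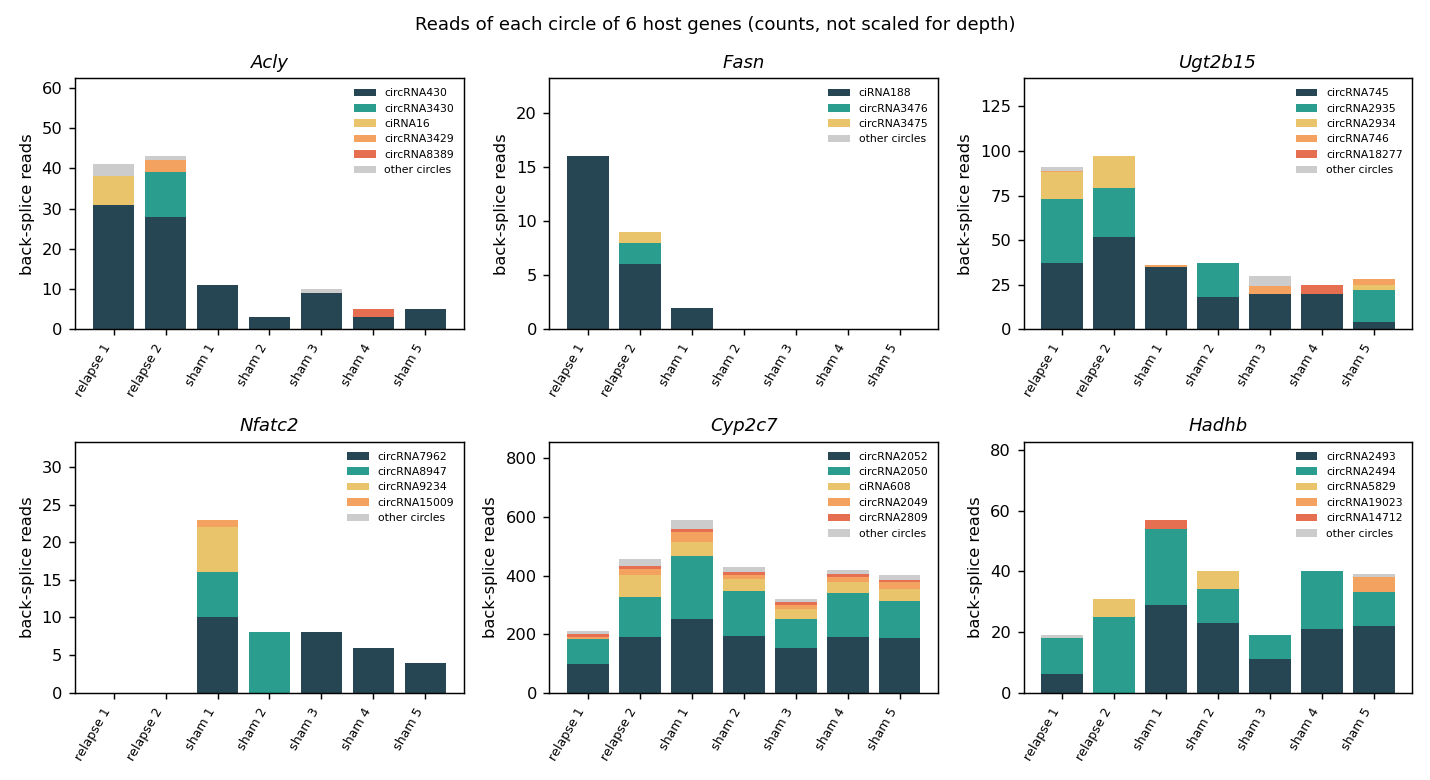
Back-splice reads of each circle of 6 host genes (vertical axis, counts not scaled for depth) in the 2 relapse and 5 sham libraries; colours are the 5 circles with the most reads and grey is the sum of the others. Relapse libraries hold few or no reads of circRNA2493 of Hadhb and none of any Nfatc2 circle, while circRNA430 makes up most of each Acly bar.

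In insulin and growth factor signalling, 2 of 10 tested hosts were lower at an unadjusted p under 0.05 (4.11% of all hosts) and none passed the adjusted threshold. Pik3c2g, a class II phosphoinositide 3-kinase of the liver, measured 3455 and 4273 CPM in relapse and 6963, 8508, 7439.7, 4668 and 7751 CPM in sham, with no overlap and an adjusted p of 0.511 in edgeR. Insr, the insulin receptor, measured 326 and 771 CPM in relapse and 1502, 572, 1827, 831 and 1133 CPM in sham, and sham library 2 fell between the relapse libraries. Among 11 hosts of glucose production, glycogen and fructose handling, 1 was higher at that threshold (1.8% of all hosts). This was Gbe1, the glycogen branching enzyme, at 2021 and 841 CPM in relapse and 956, 643, 196, 448 and 775 CPM in sham, where relapse library 2 lay inside the sham range. Tkfc, a kinase of fructose metabolism, lay above all sham libraries at 587 and 700.5 CPM against 364, 357, 326, 192 and 179. Pck1, the gluconeogenic enzyme phosphoenolpyruvate carboxykinase, and Sik2, a salt-inducible kinase, lay below all of them, with log2 fold changes of -0.66 and -1.43 (unadjusted p 0.153 and 0.124); these 2 were chosen after their values were seen.

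No host passed the threshold in the 18 tested cholesterol and bile acid hosts. Cyp7a1, which catalyses the first step from cholesterol to bile acids, had no relapse read and 364, 0, 522, 192 and 0 CPM in sham. Not every sham library read it, and its adjusted p was 0.806 in edgeR. Hmgcs1, a cholesterol synthesis enzyme, had 1 relapse read and 24 sham reads (adjusted p 0.806). That list's median was the lowest of the 15 with tested hosts, -0.64 after TMM and -0.22 on the library totals behind SRPBM. Of 21 plasma protein and complement hosts, Cp, the copper carrier ceruloplasmin, measured 0 and 210.1 CPM in relapse and 91.0, 500.5, 587, 1023 and 775 in sham, and the groups overlapped.

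The 30 tested hosts of amino acid metabolism and the urea cycle divided evenly after TMM, 15 above and 15 below a log2 fold change of 0, with a median of 0.34 on the library totals behind SRPBM. Slc16a10, a transporter of aromatic amino acids, measured 3129 and 4868 CPM in relapse and 11014, 14513, 11290.1, 5948 and 3816 CPM in sham. Sham library 5 lay between the relapse libraries; the adjusted p in edgeR was 0.604 with it and 0.0364 without it (range over the other settings 0.112 to 0.903). Cps1, the first enzyme of the urea cycle, measured 2607 and 5954 CPM in relapse and 9148, 9723, 7048, 6203 and 5366 CPM in sham, and relapse library 2 lay inside the sham range. Coq3, an enzyme of ubiquinone synthesis, showed the same arrangement at 1238 and 3958 CPM against 3823, 4504, 3719.8, 5052 and 5485. Suclg2, a succinyl-CoA ligase subunit, had overlapping groups and a log2 fold change of -0.47, or 0.0198 without relapse library 2.

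Endoplasmic reticulum, autophagy and circRNA processing hosts gave no call. Atf6, a sensor of unfolded proteins, lay below all sham libraries at 261 and 315 CPM against 409.6, 786, 587, 767 and 477, and Ero1b, an oxidase of disulphide formation, had 1 relapse and 16 sham reads. Among 10 autophagy and lysosome hosts, Vps13d, a lipid transfer protein, had 1 relapse and 23 sham reads, and Ambra1, a regulator of autophagy, measured 326 and 175 CPM against 592, 214, 326, 703 and 1252. Of 5 circRNA processing and decay hosts, Ptbp3, a splicing regulator, and Rida had log2 fold changes of -0.92 and 1.52 with overlapping groups, and Rida stood at 0.26 without relapse library 2 and at 2.18 without relapse library 1. No circadian clock host had enough reads to test.

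Hosts of widely conserved circles had no call either. Their median log2 fold change was 0.02 after TMM and 0.36 on the library totals behind SRPBM, over 33 tested hosts, 17 above 0 and 16 below, none past the threshold. Camsap1, a microtubule-binding protein, and Homer1, a synaptic scaffold, had the smallest p. Camsap1 measured 196 and 665 CPM in relapse and 1456, 715, 1697, 1663 and 477 in sham, and Homer1 measured 2803 and 1751 in relapse and 3140.4, 1930.3, 6199.7, 4796 and 8764 in sham. Relapse and sham overlapped in both.

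The 5 hosts with the most reads were Spidr, Nf1x, Cdyl, Ugt2b35 and Cyp2c7. Spidr, a scaffold protein of homologous recombination, measured 29201 and 35654 CPM in relapse and 30039, 23879, 22384, 22959 and 25100.4 in sham. Nf1x, as the table names it, measured 26268 and 26723 CPM in relapse and 25578, 19089, 19904, 28267 and 18006 in sham. Cdyl, a chromodomain protein, measured 14339.6 and 13904 CPM in relapse and 12379.5, 13441, 12204, 15860.1 and 12222 in sham. In Spidr, Nf1x, Cdyl and Ugt2b35 the groups overlapped, with adjusted p from 0.806 to 0.996 in edgeR. Cyp2c7 was the 1 host of these 5 without overlap.

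**Figure D5:**
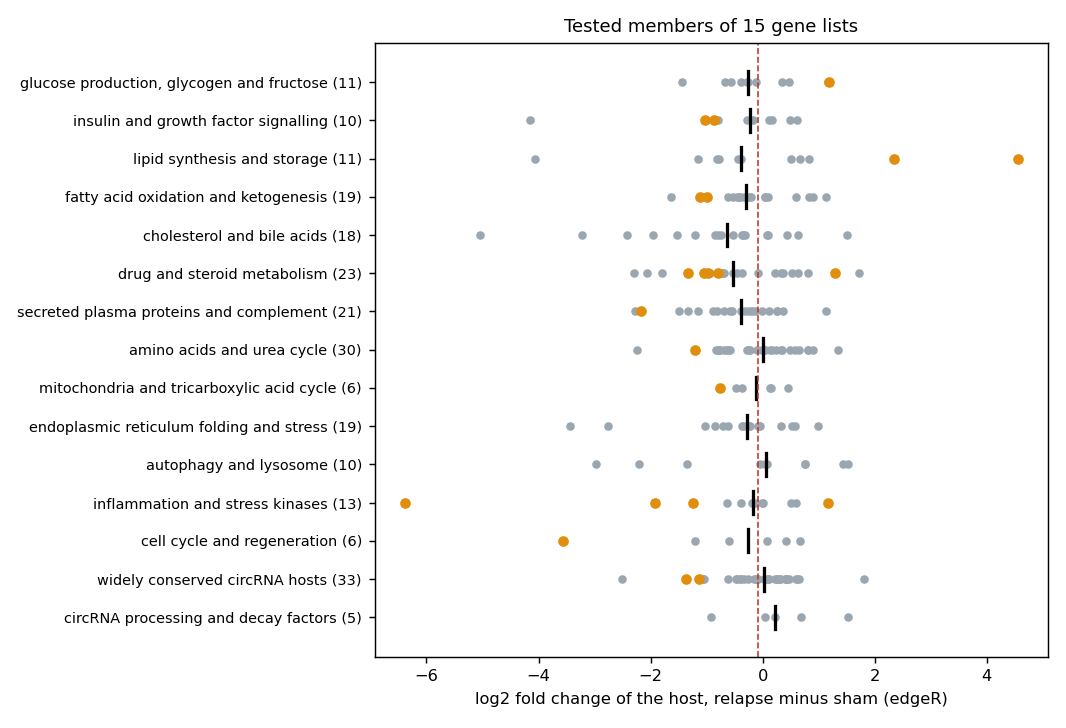
Log2 fold change (horizontal axis, relapse minus sham, edgeR) of each tested host of 15 gene lists, with the number tested in brackets. Orange points have an unadjusted p under 0.05, black bars are list medians and the dashed line is the median of all tested hosts, -0.08; medians run from -0.64 (cholesterol and bile acids) to 0.23 (circRNA processing), or from -0.22 to 0.59 on the library totals behind SRPBM.

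Single circles were tested as well. None of 1519 junctions passed the threshold in edgeR (0% of those tested; smallest adjusted p 0.579) or DESeq2, and 1 did in limma-voom; 88 had an unadjusted p under 0.05 in edgeR (5.79%), 35 higher (2.3%) and 53 lower (3.49%). Both relapse libraries lay outside the sham range in 172 junctions (11.3%), 101 higher (6.65%) and 71 lower (4.67%). Exchangeable libraries would give a share of about 0.0952. The junction called by limma-voom was circRNA2934 of Ugt2b15, 3 exons on chromosome 14, 22378206 to 22418303. It had 15 and 18 reads in the relapse libraries and 0, 0, 0, 0 and 3 in the sham libraries, a depth-scaled ratio of 22.0 (95% exact counting interval 6.90 to 112). It is an identifier entry, so the limit on a 0 applies to its 4 sham libraries without reads. Its adjusted p was 0.700 in edgeR and 0.0423 in limma-voom, and 0.760 in DESeq2.

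The other 5 higher circles named by the smallest p included 2 intergenic ones. circRNA2613, on chromosome 13, 113735261 to 113748416, was abundant and had 162 and 196 reads in the relapse libraries and 109, 75, 83, 68 and 68 in the sham libraries, or 11692 and 7855 CPM of tested junctions against 5375, 5704, 5927, 4706 and 4324. circRNA2655, on chromosome 2, 31396522 to 31416067, had 6 and 11 relapse reads and none in sham, at least 11.3-fold higher when sham is set to 3 reads over the group. Outside relapse it was read only in sleeve gastrectomy library 2, with 7 reads. It had enough reads to test only through the relapse libraries, so its bound is no separate evidence of a rise. It too is an identifier entry, so a sham 0 may stand for a few reads and this bound is not firm. circRNA758 of Smim14, a small membrane protein, had 15 and 46 reads in relapse and 16, 10, 2, 4 and 0 in sham. circRNA1550 of LOC297568, 2 exons on chromosome 4, 154538001 to 154538495, had 15 and 39 and 5, 2, 0, 5 and 9. The remaining one was circRNA430 of Acly, with an adjusted p of 0.579 at the level of the circle.

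The 6 lower circles came from Hadhb, Crot, Ppp2r5a, Cyp2c7, Map3k5 and Pik3c2g. circRNA2493 of Hadhb, 5 exons on chromosome 6, 27573047 to 27582987, had 6 and 0 reads in the relapse libraries and 29, 23, 11, 21 and 22 in the sham libraries. A second Hadhb circle, circRNA2494, had 12 and 25 reads in relapse and 74 over the sham group. Adjusted p for circRNA2493 was 0.579 in edgeR and 3.58e-05 without relapse library 1, the only relapse library that read it. It is an identifier entry, and the limit on a 0 applies to relapse library 2. circRNA7290 of Crot, a peroxisomal carnitine acyltransferase, had no relapse read and 4, 4, 8, 6 and 4 sham reads, at least 4.33-fold lower. The Crot host as a whole had a log2 fold change of -0.34 (unadjusted p 0.594).

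circRNA122 carried 98.8% of the Ppp2r5a reads, with 1 and 9 in relapse and 15, 14, 15, 16 and 13 in sham. circRNA1957 of Map3k5, 4 exons on chromosome 1, 15488393 to 15494771, had 15 and 17 and 28, 33, 59, 25 and 31. circRNA4701 of Pik3c2g had 0 and 9 and 20, 8, 14, 11 and 15, and its adjusted p in edgeR was 0.706 with both relapse libraries and 0.0276 without library 2. The main Pik3c2g circle, circRNA1579, had 41 and 82 reads in relapse and 382 over the sham group.

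Exonic circles were compared by the number of exons they hold. The median log2 fold change was 0.18 for 69 circles of 1 exon, -0.02 for 986 of 2 to 4 exons and -0.23 for 212 of 5 or more. Per library, 1-exon circles took 10.4% and 10.4% of exonic reads in relapse and 8.56% to 9.82% in sham, without overlap, and 8.40% to 11.5% after sleeve gastrectomy. The means were 10.4 ± 0.0480% (SD, n = 2) and 8.98 ± 0.529% (SD, n = 5). A two-sided exact permutation test gave p = 0.0952, the smallest that 2 against 5 libraries allow, and 0.643 after adjustment over 9 measures per library. The other 8 measures, which were reads, junctions detected, the exonic, intronic and intergenic shares, exons per read, the share of identifier entries and the share of the 10 largest circles, had exact permutation p from 0.190 upward.

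Markers of the other liver cell types were mostly not read as circles. Of 24 stellate cell and matrix markers 7 had reads, with sums of 541 and 429.8 RPM in relapse and 156 to 744 in sham. Kupffer cell and macrophage markers (8 of 24 read) summed to 217 and 376 RPM in relapse and 104 to 651 in sham. Endothelial markers (11 of 23 read) summed to 1786 and 913 RPM in relapse and 275 to 1203 in sham, cholangiocyte markers (4 of 16 read) to 0 and 26.9 RPM in relapse and 0 to 260.3 in sham, and erythroid and platelet markers (4 of 19 read) to 162 and 295 RPM in relapse and 0 to 201 in sham. Relapse and sham overlapped in all 5 of these lists.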

How the data were processed

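Liver RNA was depleted of ribosomal RNA, treated with RNase R to remove linear RNA and sequenced as strand-marked paired-end libraries, per the labels' protocols. The submitters' processing notes name cutadapt 1.9, FastQC, TopHat2 2.0.10 and the build Rnor_6.0; the back-splice caller is not given in the sources used here. The authors deposited raw back-splice read counts and a score called SRPBM, which within each library is the count times 1 constant and was used only for an alternative scaling. Coordinates count from 1. The 21876 entries were summed to 21068 junctions, since 808 junctions were written both under a gene symbol and under an Ensembl identifier or as intergenic, and then to 6021 hosts, after 1449 of 1696 identifiers had been joined to symbols through shared gene records, transcripts or junctions. No circle sequence is given, as no Rnor_6.0 genome was used here.

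The test was edgeR 4.0.16 in R 4.3.3: TMM, filterByExpr (minimum count 5, minimum total 15), a robust quasi-likelihood F-test over all 12 libraries with 3 group means, and Benjamini-Hochberg adjustment. DESeq2 1.42.0 and limma 3.58.1 (voom) were alternatives. In 1 simulation of this comparison on 1187 hosts, 28.6% and 18.2% of hosts at log2 fold changes of -3 and -2 were recovered. At 2 and 3 these shares were 39.6% and 81.2%, and 2.50% of calls were false. The simulation changed 200 hosts, which loosens the adjusted threshold, whereas 2 hosts passed in the data. It also drew counts without a reporting minimum for identifier entries. Its rates therefore do not carry over directly to this comparison. The relapse and sham pairs had a chi-square per degree of freedom of 3.13 to 4.31. The members and the gene and marker lists were chosen with earlier results of these data known. Named hosts are those past the threshold, the 12 higher and 12 lower without overlap and with the smallest p, up to 2 per list, and the 5 with the most reads; 6 junctions per direction were named likewise. An exact count of 0 allows up to 165 RPM (3 reads) in the smallest of the 7 libraries.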

Additional observations from a re-analysis of the deposited data

Results flagged for a closer look

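For each named host, circle and library measure, the highest and lowest sham library were compared with the nearest other by Dixon's test at 95% for 5 values. Of 69 sets of 5 sham values tested, 5 held a library apart. Chance gives about 1 in 20 for normally distributed values, which low counts need not follow. Where 4 of the values are 0, any reads in the remaining library set it apart. Sham library 1 had 91.0 CPM of Fasn where the other 4 had 0. Sham library 5 had 2683 CPM of LOC297568, against 196 to 895 in the others. It also had 191 CPM of circRNA2934 of Ugt2b15, where the others had 0. Sham library 1 was the deepest sham library, with 30213 back-splice reads against 18176 to 21509, and had 5362 junctions detected against 3794 to 4073.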

How the results depend on the processing

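The count of 2 hosts past the threshold became 1 with a minimum count of 10, with the 7 libraries alone, with symbol entries alone, with host names as written and on the library totals behind SRPBM, and 0 with identifier entries alone; Acly was the host in each case of 1. It was 3 in DESeq2 (Acly, Ugt2b15 and Cyp2c7), limma-voom (Acly, LOC297568 and Cyp2c7), with RLE size factors (Acly, Nfatc2 and Ugt2b15) and without a filter (Acly, Nfatc2 and ENSRNOG00000049727). Leaving out 1 library gave 0 to 5 hosts: 0 without relapse library 1, 4 without relapse library 2, 1 without sham library 1 and 5 without sham library 5. The count of 0 junctions became 1 in limma-voom, without a filter and with the replicate block, and 0 to 8 with 1 library left out (4 without relapse library 1, 8 without relapse library 2). The 141 hosts without overlap became 255 without a filter, 82 with a minimum count of 10 and 35 with identifier entries alone. They became 165 to 567 with 1 library left out, where 436 and 567 are the values without relapse library 1 and 2 and 212 the value without sham library 4. The number of hosts tested changes with these settings and is not given for them. These counts therefore do not show whether the share of 10.5% (141 of 1337) changed. With 1 relapse library left out, the other alone falls outside the sham range more easily than both do, so 436 and 567 are not comparable with 141.

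With the replicate block, 3 hosts passed (Nfatc2, LOC297568 and Acly). The labels do not say that same-numbered samples are paired. The correlation of deviations of same-numbered relapse and sham libraries was -0.000924 and 0.00342. With 2 relapse libraries the deviations mirror each other, so differently numbered libraries gave the same sizes with the sign reversed (0.000924 and -0.00342). The check therefore cannot decide whether samples were paired. Log2 fold changes reversed for Tead1 (-0.55), Spidr (-0.14) and Cdyl (-5.09) with identifier entries alone, and for Ugt2b35, -0.08 in the test as described, in limma-voom (0.0872), with the replicate block (0.0415), with identifier entries alone (0.17) and on the SRPBM totals (0.32). With 1 library left out, Ugt2b35 ran from -0.24 to 0.13 and Suclg2 from -0.98 to 0.0198. The cause was not tested. Where 1 relapse library was left out, the other was assumed to vary like the other groups. Of 599 values under other settings 577 kept direction and side of the threshold, as did 412 of 428 with a library left out. These totals pool 62 results, of which only Acly and Nfatc2 were past the threshold, so most values could hardly change side. Acly stayed past it in 10 of 10 other settings and Nfatc2 in 3 of 11. With 2 relapse libraries of unequal depth, circles with few reads cannot be told from absent ones.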

Other observations

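A pair of neighbouring circles on chromosome 5 was read in relapse library 1 and in no sham library; both were chosen after their values were seen. ciRNA177, at 77722817 to 77748886 on Rnor_6.0 in a gene annotated as alpha2u globulin, a pheromone-carrying protein that the liver of male rats secretes, had 64 reads in relapse library 1 and 0 in the other 11 libraries. circRNA2691, an intergenic circle at 77368025 to 77564788, had 175 reads in relapse library 1, 941 in sleeve gastrectomy library 4 and 0 elsewhere. Relapse library 2, the deeper library, had none of either, so the relapse libraries do not agree on them.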
